A study of Danio rerio with 18 samples.

Results

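Apolipoprotein transcripts were examined in cells sorted from zebrafish embryos by GFP. The genes asked for were apoa1a, apoa1b, apoa2, apoba, apobb.1, apoc1, apoc2, apoea, apoeb and apom, chosen by name. Symbols were matched ignoring case, and 9 of the 10 were found among 28298 gene IDs, each with 1 ID: apoa1a (ENSDARG00000012076), apoa1b (ENSDARG00000101324), apoa2 (ENSDARG00000015866), apobb.1 (ENSDARG00000022767), apoc1 (ENSDARG00000092170), apoc2 (ENSDARG00000092155), apoea (ENSDARG00000102004), apoeb (ENSDARG00000040295) and apom (ENSDARG00000076838). The symbol apoba was not found. An ID with the symbol APOB (ENSDARG00000042780) is given beside the 9 and is not counted with them.

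The 18 libraries cover 6 conditions, each with 2 GFP-positive libraries and 1 GFP-negative library. Wild-type embryos were sorted at 24, 48 and 72 hpf (hours post fertilization). Embryos of 3 other backgrounds, gata5, tbx5 and hand2, named after transcription factors of early heart development, were sorted at 72 hpf. The labels name the gene of a background and not its allele, and they do not name the GFP reporter or the number of embryos pooled. Nothing says that libraries 1 and 2 of a group came from separate pools, so the p-values measure only the spread between these libraries, which may be technical.

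Apolipoproteins are the protein part of lipoproteins, the particles that carry fat and cholesterol in blood. ApoB is the structural scaffold of the large triglyceride-rich particles, apoA-I and apoA-II are the main proteins of high density lipoprotein, apoC proteins regulate the lipases that unload particles, and apoE is a ligand of their receptors. In fish embryos the yolk syncytial layer, which surrounds the yolk, makes these proteins first, and the liver and intestine follow as they form. In mammals, macrophages also make apoE and apoC-I.

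Library totals ran from 5705157 to 32141901 counts. Levels are CPM, the counts of a gene scaled to a fixed library total, after TMM scaling. They are not divided by gene length, so they are compared between libraries and not between genes. In bulk samples, fewer cells of a type and less RNA per cell cannot be told apart. The cardiomyocyte markers tested, 16 of 16, were higher in the GFP-positive fraction, whose summed level was 1443 to 10820 CPM against 1039 to 2168 in GFP-negative libraries. Of all genes tested between the fractions, 12.4% were called higher and 16.9% lower. vmhc was not matched. The lowest GFP-positive sum was that of gata5 library 2, inside the GFP-negative range, and gata5 library 1 had the highest epidermal sum at 30070 CPM, against 920 to 9022 in the other GFP-positive libraries. Of the genes that name the backgrounds, HAND2 was at 2.56 and 0 CPM in hand2 GFP-positive cells, against 19.2 to 47.2 in the other 72 hpf GFP-positive libraries. GATA5 was at 17.1 and 14.0 CPM in gata5 against 17.7 to 47.7 elsewhere, and TBX5 at 15.5 and 5.18 in tbx5 against 1.23 to 21.7, so transcript levels do not check the tbx5 label.

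**Figure D1:**
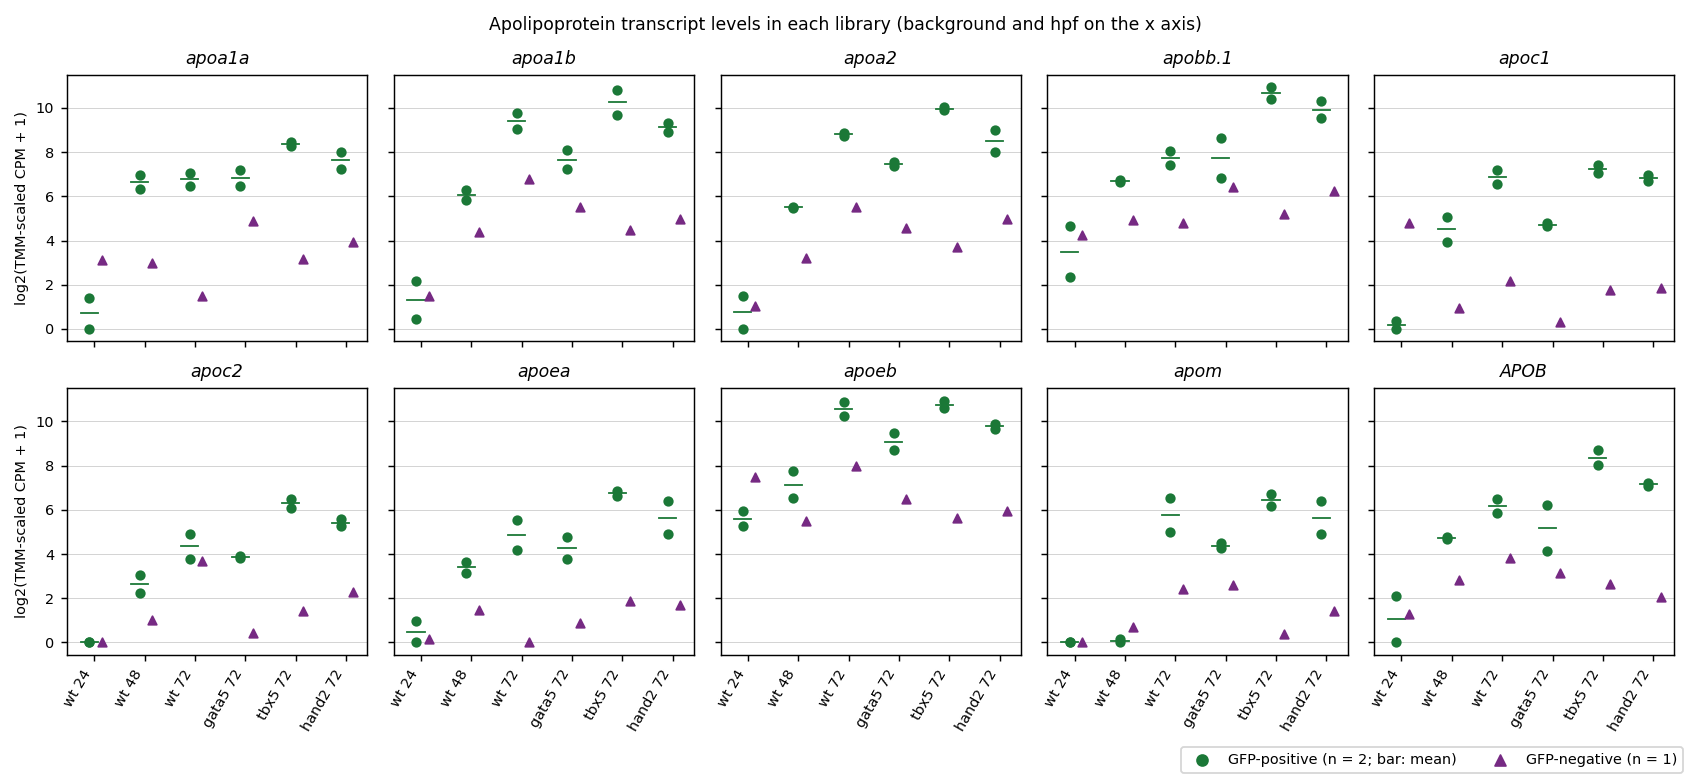
Level of each apolipoprotein gene and of APOB in each library, as log2(TMM-scaled CPM + 1), with the 6 conditions on the x axis. Circles are GFP-positive libraries (n = 2, bar at their mean) and triangles the single GFP-negative library. At 24 hpf no gene has both circles above its triangle, with apoc2 and apom at 0 in all libraries of that stage. At 72 hpf all 10 genes have both circles above in all 4 backgrounds.

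Wild-type GFP-positive cells held few apolipoprotein reads at 24 hpf and many at 72 hpf. The summed level of the 9 genes was 67.9 and 67.0 CPM at 24 hpf, then 609 and 403 at 48 hpf, then 3905 and 2571 at 72 hpf, with no overlap between stages. Of all genes tested, 32.7% were higher without overlap at 48 than at 24 hpf, 17% at 72 than at 48 hpf and 25.8% at 72 than at 24 hpf. Between 24 and 72 hpf all 9 rose (edgeR, adjusted p under 0.05), where 15.7% of all 23767 genes tested were called, 10.1% higher and 5.6% lower. Between 24 and 48 hpf 7 of 9 rose, where 13.4% of genes were called, 9.06% higher and 4.29% lower. Between 48 and 72 hpf 2 of 9 rose, where 0.488% were called, 0.261% higher and 0.227% lower, and none of the 9 fell in any of the 3 comparisons. The median log2 fold change of the 9 was 5.01 from 24 to 48 hpf, 2.37 from 48 to 72 hpf and 8.40 from 24 to 72 hpf, or 7.74 with genes absent at 24 hpf at their lower bound. The medians of all genes were 0.145, 0 and 0.0497.

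Marker genes of many other cells moved over the same stages, some up and some down. The liver markers summed to 27.5 and 34.0 CPM at 24 hpf, then 152 and 99.3 at 48 hpf, then 1529 and 1226 at 72 hpf in these libraries, and 9 of 18 rose from 24 to 48 hpf and 16 of 18 from 24 to 72 hpf. Xanthophore markers, which mark yellow pigment cells, went from 844 and 700.1 CPM to 42000 and 44320 and then 21400 and 11930. Macrophage markers went from 913 and 1180 to 2675 and 2355 and then 3929 and 2059. From 24 to 72 hpf 9 of 24 macrophage, 13 of 15 xanthophore, 6 of 10 neural, 5 of 8 epidermal, 5 of 7 skeletal muscle and 5 of 9 epicardial and fibroblast-like markers rose. Erythrocyte markers went from 21070 and 18140 CPM at 24 hpf to 561 and 599 at 72 hpf (8 of 9 fell), and endothelial markers from 3724 and 2368 to 120.2 and 218 (7 of 8 fell). Of all genes tested, 9.06% rose from 24 to 48 hpf, and 10.1% rose and 5.6% fell from 24 to 72 hpf. The part of these cells in the apolipoprotein results was not tested.

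The apoA genes, which encode proteins of high density lipoprotein, all rose from 24 to 48 hpf, and none passed from 48 to 72 hpf. apoa1a was at 1.67 and 0 CPM at 24 hpf, then 124 and 78.6 at 48 hpf, then 133 and 87.7 at 72 hpf. It rose in the first interval (log2 fold change 6.98 ± 1.15, SE, adjusted p = 0.00464, edgeR), and the second gave 0.15 ± 0.85 with overlapping libraries. apoa1b was at 0.363 and 3.56 CPM, then 77.7 and 56.7, then 866 and 526. It rose by 5.01 ± 0.87 in the first interval (adjusted p = 0.00497, edgeR), and its further 3.39 ± 0.79 did not pass (adjusted p = 0.129), though the libraries of the stages did not overlap. apoa2 was at 0 and 1.83 CPM, then 44.7 and 43.6, then 472 and 428. It rose by 5.45 ± 0.97 by 48 hpf (adjusted p = 0.0061, edgeR) and changed by 3.37 ± 0.84 from 48 to 72 hpf (adjusted p = 0.164). The first apoa2 call was lost without 48 hpf library 1 or 2 (adjusted p = 0.0555 and 0.0526). Without either 24 hpf library, which the 72 against 48 hpf comparison does not itself use, apoa1b and apoa2 passed in it (adjusted p = 4.14e-05 to 0.00086).

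apobb.1, an apoB scaffold gene, already had reads in both libraries at 24 hpf. It stood at 4.14 and 24.0 CPM at 24 hpf, then 98.9 and 105 at 48 hpf, then 263 and 172 at 72 hpf. The change to 48 hpf did not pass (2.81 ± 0.83, adjusted p = 0.0617, edgeR), nor did that from 48 to 72 hpf (1.12 ± 0.78, adjusted p = 0.586). The first of these passed under other settings, namely without 24 hpf library 2 (4.60, adjusted p = 0.00348), without either gata5 library (adjusted p = 0.0492 and 0.0491), with the replicate block (adjusted p = 0.0447), with no filter on low counts (adjusted p = 3.77e-11) and with DESeq2 (adjusted p = 0.000259). Over 24 to 72 hpf it rose by 3.93 ± 0.87 (adjusted p = 0.017, edgeR), or 13.3-fold by pooled counts (counting interval 12.2 to 14.6). That call was lost without 1 of 6 libraries, namely either 48 hpf, either 72 hpf or either hand2 library (adjusted p = 0.0526 to 0.0723). APOB was at 0 and 3.35, 26.0 and 24.5, and 88.7 and 57.2 CPM at the 3 stages. It rose from 24 to 72 hpf (5.36 ± 1.32, adjusted p = 0.0303, edgeR), and 8 of the 12 fits without 1 library lost the call.

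The apoC genes were near or at 0 at 24 hpf. apoc1, which in mammals inhibits lipid uptake from particles, was at 0.29 and 0 CPM (4 counts in all), then 32.5 and 14.5, then 145 and 93.6. It rose by 7.43 ± 0.75 to 48 hpf (adjusted p = 2.08e-05, edgeR), and the next 2.37 ± 0.51 did not pass (adjusted p = 0.065). It passed there without either 24 hpf library (adjusted p = 0.00545 and 0.00455). apoc2, the cofactor that activates lipoprotein lipase, had 0 counts in both 24 hpf libraries. It was at 7.24 and 3.64 CPM at 48 hpf, then 29.4 and 12.7 at 72 hpf, at least 57.1-fold and at least 213-fold above a floor of 3 counts over the 24 hpf group. Both rises passed (adjusted p = 4.08e-05 and 7.4e-06, edgeR), while 48 to 72 hpf did not (1.98 ± 0.51, adjusted p = 0.125).

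The apoE genes, receptor ligands, both rose from 24 to 48 hpf. apoeb was at 60.5 and 37.6 CPM at 24 hpf. It reached 213 and 92.8 at 48 hpf, then 1858 and 1202 at 72 hpf. It rose by 1.60 ± 0.41 to 48 hpf (adjusted p = 0.0158, edgeR) and by 3.35 ± 0.43 from 48 to 72 hpf (adjusted p = 0.00231, edgeR). Without 48 hpf library 1 the first step was 0.89 (adjusted p = 0.265), and without 24 hpf library 2 it was 1.32 (adjusted p = 0.132). apoea was at 0.94 and 0 CPM, then 11.5 and 7.84, then 45.9 and 17.2. It rose by 4.42 ± 1.14 to 48 hpf (adjusted p = 0.0308, edgeR), and 1.73 ± 0.92 from 48 to 72 hpf did not pass (adjusted p = 0.499). The first apoea call was lost without any 1 of 8 libraries (adjusted p = 0.0563 to 0.174). Over 24 to 72 hpf it rose by 6.15 ± 1.19 (adjusted p = 0.00741, edgeR). Whether apoea and apoeb differ in timing was not tested.

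apom, a carrier of the lipid mediator sphingosine 1-phosphate on high density lipoprotein in mammals, appeared last. It had 0 counts in both 24 hpf libraries and 2 counts in all at 48 hpf, and it stood at 92.8 and 31.1 CPM at 72 hpf. From 48 to 72 hpf it rose 899-fold by pooled counts (counting interval 249 to 7430, adjusted p = 0.000923, edgeR), and at 72 hpf it was at least 612-fold above the 24 hpf floor. The counting intervals and floors cover counting error only.

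**Figure D2:**
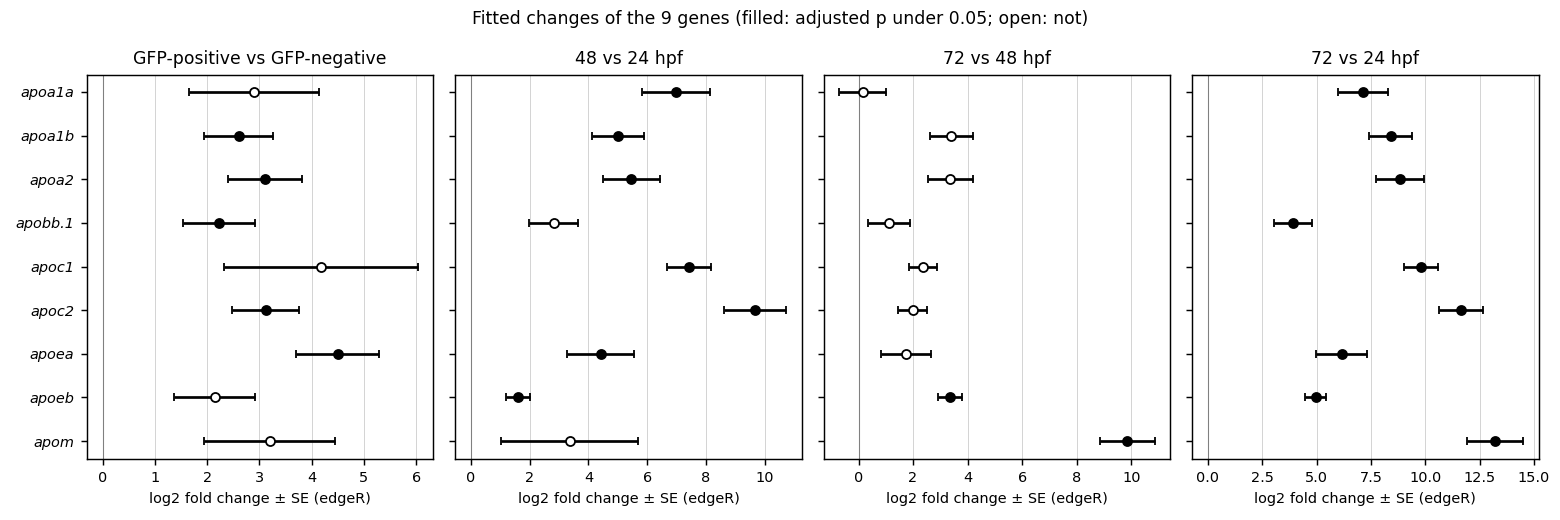
Log2 fold changes (x axis, with SE bars, edgeR) of the 9 genes between fractions over all conditions and between stages in wild-type GFP-positive cells. Filled points passed an adjusted p of 0.05, which 5, 7, 2 and 9 genes did, all higher, and the points of apoc2 and apom against 24 hpf rest on groups at 0 counts and are no bound.

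Over all 6 conditions 5 of 9 apolipoprotein genes rose in GFP-positive against GFP-negative cells, and the other 4 did not pass. Of 21729 genes tested, 29.3% were called, 12.4% higher and 16.9% lower. The median log2 fold change of the 9 was 3.11, against −0.256 for all genes. Their summed level had a lowest, median and highest value of 67.0, 2039 and 7488 CPM in the 12 GFP-positive libraries and 113, 227 and 458 in the 6 GFP-negative ones, so the fractions overlapped. Both 24 hpf GFP-positive libraries and 48 hpf library 2 (403 CPM) lay below the highest GFP-negative library. Macrophage markers (20 of 24 called higher), xanthophore markers (14 of 15) and liver markers (7 of 18) were higher in the same fraction, and their part was not tested.

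apoea rose most clearly. Its lowest, median and highest levels were 0, 21.8 and 116 CPM in GFP-positive libraries and 0, 1.28 and 2.71 in GFP-negative ones (4.50 ± 0.79, adjusted p = 0.000602, edgeR). apoc2 had 0, 13.7 and 88.7 CPM against 0, 1.35 and 11.97 (3.12 ± 0.64, adjusted p = 0.0021, edgeR). apoa2 had 0, 223 and 1051 against 1.03, 17.2 and 45.0 (3.11 ± 0.71, adjusted p = 0.00476, edgeR). The GFP-positive medians were above the highest GFP-negative library for each of these 3 genes, and only the 24 hpf and, for some, the 48 hpf libraries reached down to the GFP-negative levels. apoa1b (2.60 ± 0.66, adjusted p = 0.00939, edgeR) and apobb.1 (2.22 ± 0.69, adjusted p = 0.0268) rose too, as did APOB (2.91 ± 0.82, adjusted p = 0.0167), whose call was lost without the hand2 GFP-negative library (adjusted p = 0.0521), with the replicate block (adjusted p = 0.0549), without the tbx5 libraries (adjusted p = 0.058) and in the wild-type libraries alone (adjusted p = 0.446). The apobb.1 call was lost without any 1 of 5 libraries (adjusted p = 0.0519 to 0.0873). It was also lost without the 3 tbx5 libraries (1.78, adjusted p = 0.0667, edgeR) and in the wild-type libraries alone.

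The other 4 genes gave differences of the same direction that did not pass. These were apoeb (2.14 ± 0.78, adjusted p = 0.0537, edgeR), apom (3.2 ± 1.25, adjusted p = 0.0758), apoa1a (2.90 ± 1.25, adjusted p = 0.101) and apoc1 (4.17 ± 1.85, adjusted p = 0.113). All 4 passed without the wild-type 24 hpf GFP-negative library (adjusted p = 3.8e-08 for apoc1, 7.96e-05 for apoeb, 0.000461 for apoa1a and 0.0494 for apom). Without all 24 and 48 hpf libraries, a choice made after seeing the data, 9 of 9 passed. The share of all genes called in these smaller sets of libraries was not counted, so the counts cannot be judged against all genes. In the 9 wild-type libraries alone 0 of 9 passed (edgeR), and apoc1 and apom had log2 differences of −0.26 and −0.09.

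The fractions related differently at 24 hpf than later. At 72 hpf both GFP-positive libraries were above the GFP-negative one for 9 of 9 genes in each of the 4 backgrounds, and at 48 hpf for 8 of 9, all but apom. At 24 hpf this held for 0 of 9, where apoc2 and apom had 0 counts in all libraries of that stage and could not be above. The share of all genes that lay above in this way was not counted at any stage. The counts therefore do not show a trait particular to these 9 genes. The median ratio of pooled GFP-positive to GFP-negative level, over the genes with counts above the floor, was 0.564 at 24 hpf, then 5.27 at 48 hpf, then 8.81 at 72 hpf for wild type. The 72 hpf backgrounds gave 4.55 for gata5, 49.3 for tbx5 and 14.3 for hand2. Each of these rests on a single GFP-negative library.

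apoc1, apoeb and apoa1a were higher in the GFP-negative library at 24 hpf. apoc1 was at 27.1 CPM (211 counts) in the 24 hpf GFP-negative library, the highest of the 6, where the GFP-positive libraries held 0.29 and 0. The other GFP-negative libraries held 0.233 to 3.55 CPM of it. apoeb was at 176 CPM in that library against 60.5 and 37.6 in GFP-positive cells, and at 72 hpf at 254 against 1858 and 1202. apoa1a was at 7.57 CPM against 1.67 and 0, and at 72 hpf at 1.84 against 133 and 87.7. The GFP difference at 72 hpf minus that at 24 hpf, a contrast added after the values were seen, passed for 3 of 9 genes, where 1.4% of 21729 genes were called, 1.2% higher and 0.207% lower. It was 12.72 ± 1.31 for apoc1 (adjusted p = 0.00121, edgeR), 4.44 ± 0.76 for apoeb (adjusted p = 0.0156) and 9.17 ± 1.67 for apoa1a (adjusted p = 0.0227). The apoa1a call was lost without tbx5 library 1 (adjusted p = 0.0517) or hand2 library 2 (adjusted p = 0.0605), and without 24 hpf library 2 apoa2 and apobb.1 passed as well (adjusted p = 0.00578 and 0.0388). On simulated data more calls of this contrast were false than its adjusted p states, so these 3 calls are less certain than those of the other comparisons. This fit takes the spread of the lone GFP-negative libraries from the GFP-positive groups.

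At 72 hpf the summed apolipoprotein level of GFP-positive cells was lowest in gata5 and highest in tbx5, but no gene passed the main test in any comparison of backgrounds. The summed level was 1285 and 1506 CPM in gata5, 3905 and 2571 in wild type, 2649 and 3970 in hand2 and 7488 and 5480 in tbx5. In that order wild type and hand2 overlap, and the other neighbours do not. Of all genes, edgeR called 0.105% in gata5 against wild type (0.0757% higher, 0.0295% lower), 0.0463% in tbx5 (0.0421% higher, 0.00421% lower) and 0.0505% in hand2 (0.0337% higher, 0.0168% lower). The share of all genes called by DESeq2, without a filter on low counts or without 1 library was not counted. The counts of the 9 genes under those settings, given below, cannot be judged against all genes. The median log2 fold change of the 9 was −1.38 for gata5, 1.15 for tbx5 and −0.09 for hand2, where the medians of all genes were 0, 0.0168 and 0.084. These 3 comparisons share the wild-type libraries. On simulated data with 200 genes altered, the fit used here called 36 genes from 24 to 48 hpf, 1 of them falsely. It found 1 gene altered 4-fold and 18 altered 16-fold. What share it finds between backgrounds was not tested, so 0 called genes does not show equal levels.

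**Figure D3:**
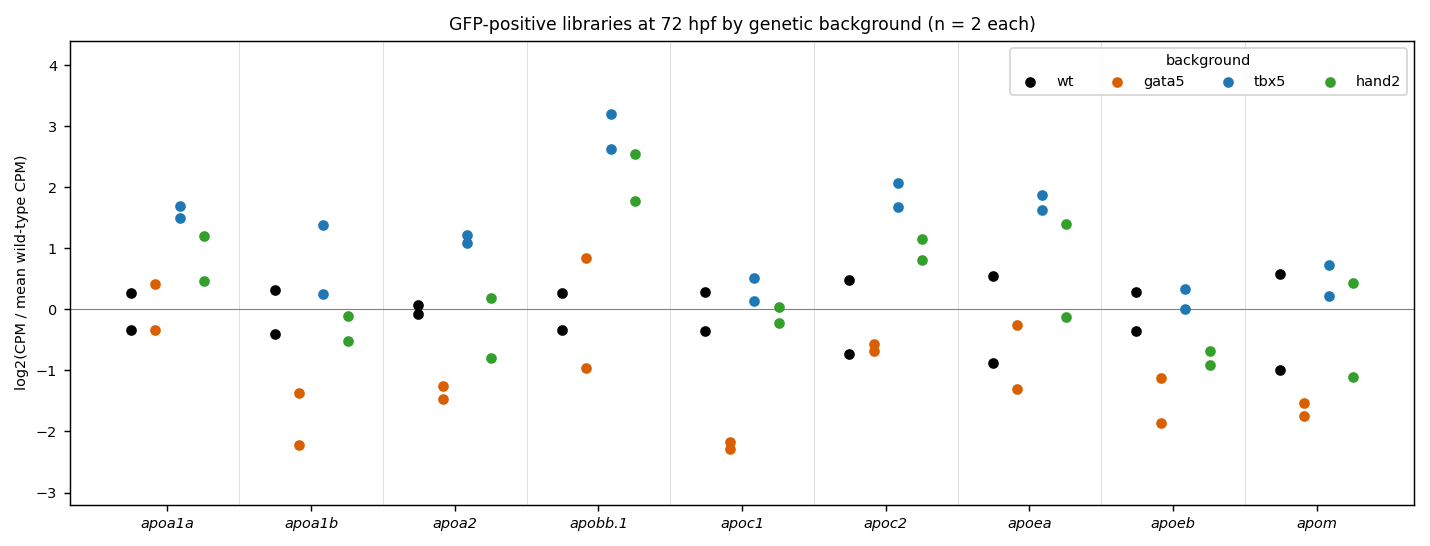
GFP-positive libraries at 72 hpf, as log2 of each library's CPM over the mean of the wild-type libraries, for the 9 genes on the x axis (n = 2 a background, points are libraries). The gata5 points lie below the tbx5 and the hand2 points for all 9 genes.

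gata5 against wild type called 0 of 9 genes with edgeR, 4 at an unadjusted p under 0.05 (all lower, as were 3.76% of all genes) and 2 with DESeq2, apoc1 and apoeb. apoc1 was at 24.3 and 26.4 CPM in gata5 against 145 and 93.6 in wild type (−2.25 ± 0.51, adjusted p = 0.141, edgeR). apoeb was at 703 and 421 against 1858 and 1202 (−1.46 ± 0.41, adjusted p = 0.256). apoa1b was at 150 and 271 against 866 and 526, apoa2 at 164 and 188 against 472 and 428, and apom at 18.4 and 21.4 against 92.8 and 31.1. These 5 genes were lower with no overlap between the backgrounds, as were 14.8% of all genes tested, while apoa1a, apobb.1, apoc2 and apoea overlapped. Their log2 changes were −1.75, −1.38 and −1.65 for apoa1b, apoa2 and apom, and from −0.71 to 0.19 for the overlapping genes. Without either wild-type 24 hpf library apoc1 passed (adjusted p = 0.0214 and 0.0176), and with no filter on low counts the 5 genes without overlap did.

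tbx5 against wild type called 0 of 9 genes with edgeR, 2 at an unadjusted p under 0.05 (both higher, as were 5.48% of all genes) and 2 with DESeq2, apobb.1 and apoc2. apobb.1 was at 1998 and 1347 CPM in tbx5 against 263 and 172 in wild type (2.94 ± 0.83, adjusted p = 0.422, edgeR). apoc2 was at 67.4 and 88.7 against 29.4 and 12.7 (1.88 ± 0.51, adjusted p = 0.325). apoa1a was at 311 and 356 against 133 and 87.7, apoa2 at 1051 and 960.4 against 472 and 428, and apoea at 97.8 and 116 against 45.9 and 17.2. Those 5 genes were higher without overlap, as were 20.8% of all genes tested, while apoa1b, apoc1, apoeb and apom overlapped. Without wild-type 72 hpf library 1 apoc2 passed (adjusted p = 0.037).

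hand2 against wild type called 0 of 9 genes with edgeR, 1 at an unadjusted p under 0.05 (higher, as were 6.48% of all genes, so 1 of 9 is near the background) and 1 with DESeq2, apobb.1. It was at 746 and 1269 CPM in hand2 against 263 and 172 (2.21 ± 0.81, adjusted p = 0.472, edgeR). apoa1a (152 and 255 against 133 and 87.7 CPM) and apoc2 (37.0 and 46.9 against 29.4 and 12.7) were higher without overlap too, as were 27.2% of all genes tested. apoeb, at 812 and 954 against 1858 and 1202, was lower without overlap, as were 15.8% of all genes (−0.79 ± 0.40, adjusted p = 0.577).

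The backgrounds were also compared with each other, after the values were seen. gata5 was below tbx5 without overlap for 9 of 9 genes, as it was for 19.2% of all genes tested, with a median log2 difference of −2.53. edgeR called 0 of them, where it called 0.0379% of all genes, 0.0337% lower and 0.00421% higher. At an unadjusted p under 0.05, 8 were lower (3.04% of all genes). DESeq2 called 5, and its share of all genes was not counted. The smallest adjusted p-values were those of apoc1 (−2.59 ± 0.52, adjusted p = 0.167, edgeR) and apoc2 (−2.52 ± 0.52, adjusted p = 0.172). Without either wild-type 24 hpf library apoc1, apoc2, apoa1b and apoa2 passed (adjusted p = 0.00146 to 0.0498). gata5 was below hand2 without overlap for 9 of 9 genes too, against 24.3% of all genes (median −1.51). There edgeR called 0 of the 9, against 0.00842% of all genes. At an unadjusted p under 0.05, 4 were lower, against 4.08% of all genes, and DESeq2 called 1. tbx5 was above hand2 without overlap for 8 of 9, against 18.1% of all genes (median 0.89). Here edgeR called 0 of the 9, against 0.00421% of all genes. At an unadjusted p under 0.05, 1 was higher, against 1.11% of all genes, and DESeq2 called 0.

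Liver markers were also lowest in gata5 and highest in tbx5. They summed to 501 and 427 CPM in gata5, 862 and 1095 in hand2, 1529 and 1226 in wild type and 4136 and 2346 in tbx5. Of 18 tested, 2 were called lower in gata5 than in wild type, as were 0.0295% of all genes. In gata5 against tbx5, 4 were called lower, as were 0.0337% of all genes. Macrophage markers summed to 4210 and 4430 for gata5, 3929 and 2059 for wild type, 5241 and 4742 for tbx5, and 5150 and 6649 for hand2, with 0 of 24 called by edgeR in any comparison with wild type. Yolk syncytial layer markers summed to 1458 and 1160 for gata5, 1022 and 742 for wild type, 1599 and 1441 for tbx5, and 1575 and 1780 for hand2. The part of any of these in the apolipoprotein levels was not tested.

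Near-identical or related paralogs can share reads, and how the counting split them is not given in the sources used here. Of the reads of both apoa1 genes, apoa1b took 38.6 and 41.9% in wild-type GFP-positive cells at 48 hpf (exact Clopper-Pearson intervals 36.8 to 40.4 and 40.0 to 43.9) and 86.7 and 85.7% at 72 hpf (86.2 to 87.1 and 85.2 to 86.2). The share was 63.2 and 64.7% for gata5, 85.3 and 70.0% for tbx5, and 76.1 and 71.6% for hand2. The gata5 libraries were below those of the other 3 backgrounds, and hand2 lay below wild type. At 24 hpf the libraries disagreed, with 5 of 28 reads in library 1 and 68 of 68 in library 2. No test across libraries was run on these shares. apoeb took 92.0 to 98.6% of apoE reads in GFP-positive cells at 48 and 72 hpf, and apobb.1 took 74.8 to 89.5% of the reads of apobb.1 and APOB. These shares are of reads, not per length.

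**Figure D4:**
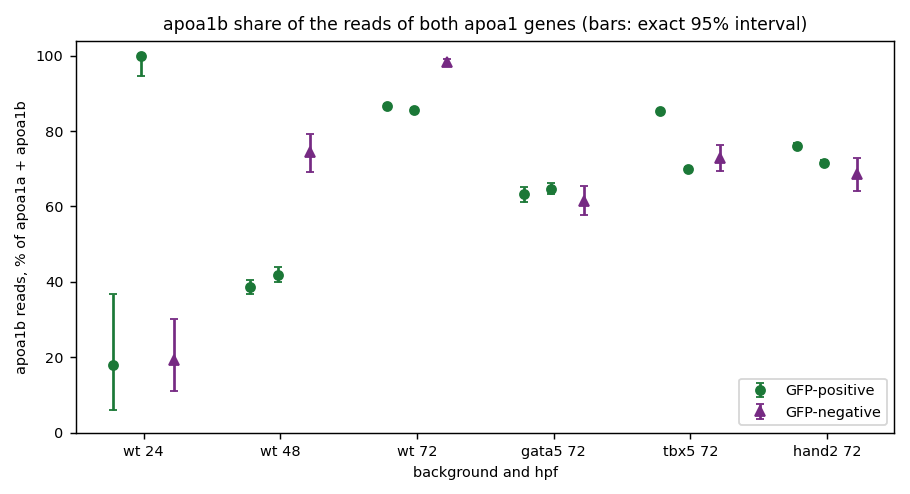
Share of apoa1b in the reads of apoa1a and apoa1b in each library (y axis, %, bars are exact 95% binomial intervals, counting error only), by condition. GFP-positive libraries moved from 38.6 and 41.9% at 48 hpf to 86.7 and 85.7% at 72 hpf in wild type and stand at 63.2 and 64.7% in gata5.

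In the RefSeq order of genes (assembly GRCz12tu, used for names and order only), apoeb, apoc1, apoc4, apoa2 and apoc2 follow one another, with apoa4b.2 before them. apoea lies beside apoa4a, and apoa1a, apoa1b, apobb.1 and apom lie apart. The member of the row not among the 9, apoc4, had 17 reads in 1 library, a wild-type 48 hpf GFP-positive one, while its neighbours on both sides rose between 24 and 72 hpf. apoa4b.1 and apoa4b.2, genes of apoA-IV, had 0 counts in both 24 hpf GFP-positive libraries. At 72 hpf they were at 43.2 and 16.6 and at 9.61 and 9.54 CPM, and both rose (adjusted p = 0.00103 and 0.000593, edgeR). A list of other genes with apolipoprotein symbols was made by name and includes APOO and apool. Of 13 of them tested, 3 rose and 0 fell from 24 to 72 hpf, where 10.1% of all genes rose and 5.6% fell. In GFP-positive against GFP-negative cells 4 rose and 0 fell, where 12.4% of all genes rose and 16.9% fell. apoa4b.2 (4.90 ± 0.88) and apoa4b.3 (4.69 ± 1.65) were among these 4.

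Genes of the machinery that loads lipid onto apoB were counted next. Of 10 assembly and lipid loading genes tested, 5 rose and 1 fell from 24 to 48 hpf, 1 rose and 0 fell from 48 to 72 hpf and 4 rose and 0 fell from 24 to 72 hpf. Of all genes tested, 9.06, 0.261 and 10.1% rose and 4.29, 0.227 and 5.6% fell in these comparisons. MTTP, the transfer protein that lipidates apoB, was at 0 CPM in both 24 hpf libraries, then 1.28 and 0.441 at 48 hpf, then 45.8 and 51.2 at 72 hpf (5.86 ± 0.81 from 48 to 72 hpf, adjusted p = 0.00554, edgeR). In gata5 it was at 2.17 and 5.94 CPM and in tbx5 at 114 and 29.8. The symbol DGAT1, for an enzyme of triglyceride synthesis, belongs to a pair of IDs that moved in opposite directions between 24 and 48 hpf, ENSDARG00000103503 from 0 and 0 to 25.8 and 19.4 CPM and ENSDARG00000054914 from 4.65 and 5.08 to 0 and 0. In GFP-positive against GFP-negative cells 4 of 10 rose and 0 fell, where 12.4% of all genes rose and 16.9% fell. Among the 4 were DGAT2 (7.09 ± 1.33), which completes triglyceride synthesis, and PLA2G12B (3.93 ± 0.65), which in zebrafish is needed for lipoprotein secretion.

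Receptors moved in both directions. Of 15 lipoprotein receptor genes, 3 rose and 2 fell from 24 to 48 hpf, where 9.06% of all genes rose and 4.29% fell. SCARB1, the high density lipoprotein receptor and also a gene of xanthophores, went from 9.94 and 7.55 to 171 and 165 CPM (4.23 ± 0.38, adjusted p = 5.12e-06, edgeR). stab2, a scavenger receptor of endothelium, fell from 1830 and 1140 to 3.19 and 1.99 CPM (−9.21 ± 1.18, adjusted p = 0.00117, edgeR). Between fractions, where 12.4% of all genes rose and 16.9% fell, 3 of 15 receptors rose and 5 fell, LRP1B (ENSDARG00000004789) among the latter (−2.17 ± 0.57). Of 12 lipase, transfer and inhibitor genes, 1 rose and 0 fell from 24 to 48 hpf, a share near the 9.06% of all genes that rose. It was LCAT, which esterifies cholesterol, at 0 and 0 and then 3.62 and 0 CPM. ANGPTL4, an inhibitor of lipoprotein lipase, was the only gene of the pathway lists called between a background and wild type, at 18.3 and 16.5 CPM in gata5 against 124 and 102 (−2.72 ± 0.48, adjusted p = 0.0457, edgeR).

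Cholesterol efflux genes and transcription factors are read against the shares of all genes in the same comparison. These were 9.06% higher and 4.29% lower from 24 to 48 hpf, and 10.1% higher and 5.6% lower from 24 to 72 hpf. Between fractions they were 12.4% higher and 16.9% lower. Of 9 efflux genes 1 rose and 0 fell from 24 to 48 hpf, namely NPC2 (ENSDARG00000090912), which moves cholesterol out of lysosomes (1.56 ± 0.45, adjusted p = 0.0339, edgeR), and 4 rose and 0 fell between fractions. ABCA1, which hands cholesterol to apoA-I, fell from 24 to 72 hpf (−1.07 ± 0.32, adjusted p = 0.0346, edgeR). Of 21 transcription factor genes of lipid and liver programs, 2 rose and 2 fell from 24 to 48 hpf and 3 rose and 0 fell from 24 to 72 hpf. pparaa, a fatty acid sensor, was at 0 CPM in both 24 hpf libraries and at 27.5 and 29.1 at 48 hpf. HNF4A, a regulator of liver apolipoprotein genes, was at 0 and 0, 2.34 and 1.1, and 7.80 and 0.0311 CPM at the 3 stages, so its rise from 24 to 72 hpf (adjusted p = 0.0384, edgeR) is carried by 1 library. In GFP-positive against GFP-negative cells 1 of 20 such factors rose and 3 fell, neither above the share of all genes. CEBPA rose (1.42 ± 0.40, adjusted p = 0.0143, edgeR), and PROX1 was among those that fell (−1.75 ± 0.26, adjusted p = 9.53e-05, edgeR). PROX1 had risen from 24 to 48 hpf in wild-type GFP-positive cells (2.27 ± 0.55, adjusted p = 0.0115, edgeR).

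Markers of the tissues known for apolipoproteins rose in part, and single markers, named after their values were seen, varied. Of 18 liver markers, 9 rose and 0 fell from 24 to 48 hpf. On the liver list, fabp10a, the liver fatty acid binding protein, was at 0 CPM in both 48 hpf GFP-positive libraries. At 72 hpf it was at 66.7 and 25.5 CPM in wild type, against 1.90 and 1.64 for gata5, 58.7 and 39.1 for tbx5, and 12.7 and 18.8 for hand2. tfa, transferrin, was at 21.5 and 27.3 CPM at 24 hpf, then 63.4 and 60.5 at 48 hpf, then 537 and 460 at 72 hpf. Of the yolk syncytial layer list, mxtx1, mxtx2 and the vitellogenins vtg1, vtg2 and vtg5 did not exceed 2.12 CPM in any library. That list shares MTTP and HNF4A with the lists above, so its counts are not separate from theirs. MTTP is among its genes that rose from 24 to 48 and from 24 to 72 hpf, and HNF4A from 24 to 72 hpf. Of that whole list, 5 of 15 rose and 0 fell from 24 to 48 hpf, 6 rose and 1 fell from 24 to 72 hpf, and 7 of 13 rose and 0 fell in GFP-positive against GFP-negative cells. Of all genes tested, 9.06, 10.1 and 12.4% rose and 4.29, 5.6 and 16.9% fell in these comparisons. The list summed to 418 to 482 CPM in GFP-positive cells at 24 hpf, 841 to 1250 at 48 hpf and 742 to 1780 at 72 hpf, against 197 to 301 in GFP-negative libraries. Intestinal markers summed to 20.9 to 24.5, 33.6 to 44.3 and 61.3 to 232 CPM at the 3 stages, against 33.4 to 103 in GFP-negative libraries.

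**Figure D5:**
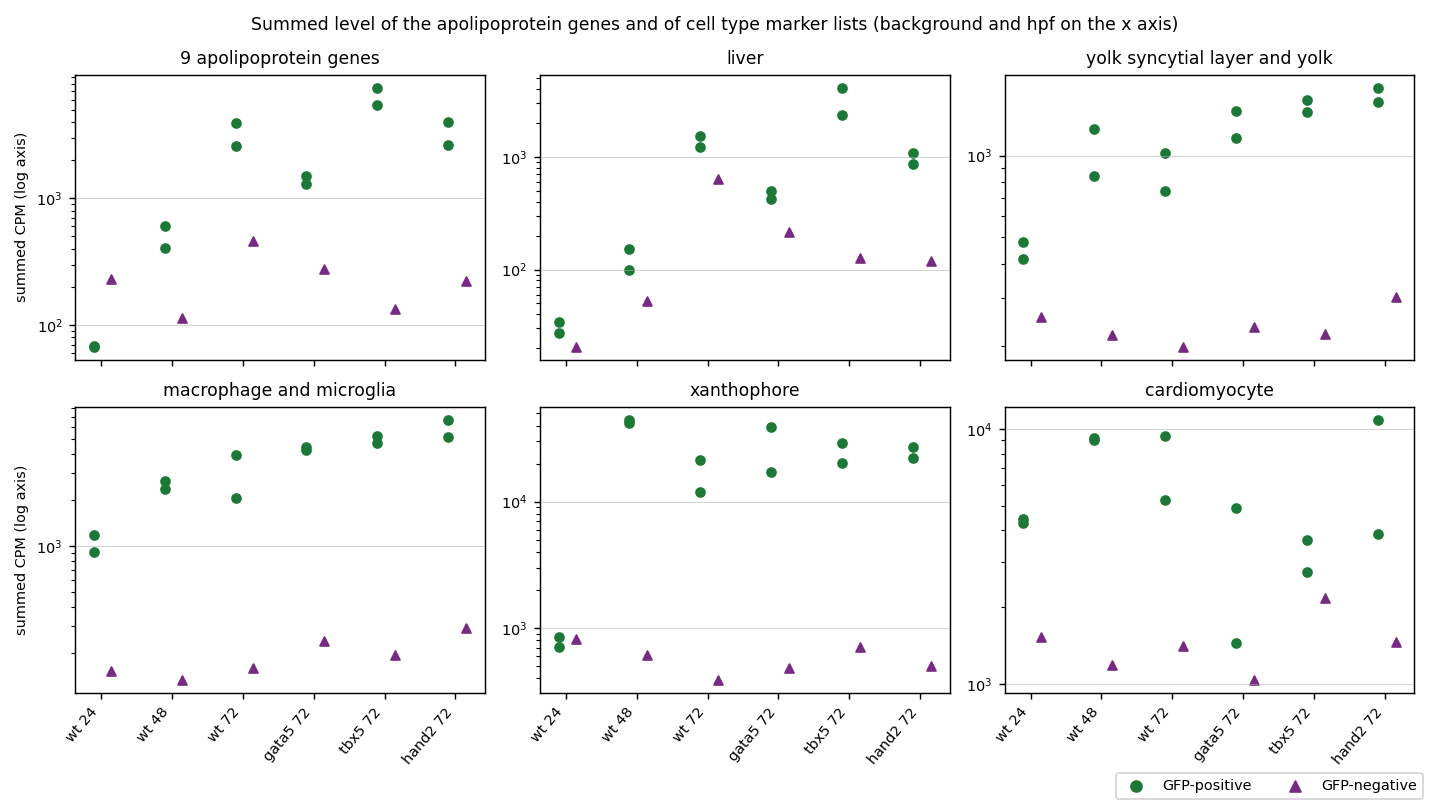
Summed CPM (log axis) of the 9 apolipoprotein genes and of 5 marker lists in each library, by condition; circles are GFP-positive and triangles GFP-negative libraries. Among GFP-positive libraries the apolipoprotein, liver, yolk syncytial layer, macrophage and xanthophore sums are all lowest at 24 hpf, and the cardiomyocyte sum is not. The apolipoprotein and liver sums are highest in tbx5, at 7488 and 5480 and at 4136 and 2346 CPM. The yolk syncytial layer, macrophage and cardiomyocyte sums are highest in a hand2 library (1780, 6649 and 10820 CPM), and the xanthophore sum at 48 hpf.

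Across the 18 libraries the 9 genes varied together, with Pearson r of log2(CPM + 1) from 0.75 to 0.991 over 36 pairs (median 0.877). The points share libraries and a split into low libraries (GFP-negative and 24 hpf) and high ones, so r is a description. The closest pair was apoa1b and apoa2. Among 10366 genes with a symbol and a mean of at least 10 CPM, the summed level was most like FGG (fibrinogen gamma, r = 0.966), a2ml (0.958) and c3a.1 (complement C3, 0.957). For single genes these were FGG for apoa1b (0.97) and apoa2 (0.974), FGB for apoc2 (0.968), cfb for apom (0.966), f2 (prothrombin) for apoeb (0.948), APOB for apobb.1 (0.956) and PLA2G12B for apoea (0.958). Among the genes most like apoa1a were anxa3b (0.955) and UCHL1 (0.949), and for apoc1 they were smpd2a (0.936), MOSPD2 (0.925) and apoeb (0.921).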

How the data were processed

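The 18 RNA-seq libraries of sorted zebrafish cells were made from column-purified RNA with a SMARTer low input kit, per the labels' protocols. The authors' deposited counts give reads per gene ID as whole numbers and are not normalized. A further deposited table holds log2 values that the labels call rld, the usual name of a regularized-log transform. The submitters' processing notes list DESeq2 with no version beside the build GRCz10, SAMtools 1.4, STAR 2.5 and Trimmomatic 0.36. Not given in the sources used here are the counter, the annotation and the strandedness, so reads of overlapping, antisense or near-identical genes cannot be assigned with certainty. The deposited log2 values were used only to compare directions, which were the same in 89 of 90 gene comparisons and in 23 of 23 called ones.

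Tests on counts used edgeR 4.0.16 under R 4.3.3 (TMM, filterByExpr with minimum count 10 and minimum total 15, robust quasi-likelihood F test, two-sided, Benjamini-Hochberg adjustment over all genes tested, called under 0.05). The fraction comparison used all 18 libraries with condition as covariate (21729 genes, 11 residual degrees of freedom). Stages and backgrounds used the 12 GFP-positive libraries as 6 groups (23767 genes, 6 degrees of freedom), and the stage by GFP contrast all libraries as 12 groups (21729 genes, 6 degrees of freedom). That contrast was first filtered by the 12 groups, which on simulated data gave mostly false calls, and was then filtered by fraction, with the first filter kept as an alternative. Alternatives were DESeq2 1.42.0, its size factors, no filter, a replicate block, other sets of libraries and leaving out each library. The floor is 3 counts and intervals are at 95% confidence. Scripts were tested on simulated data.

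The 9 genes are always named. From each pathway list the 2 largest called changes were eligible if the mean of any group, compared or not, reached 5 CPM. LCAT from 24 to 48 hpf and HNF4A from 24 to 72 hpf reached it only outside the groups compared. Others named were chosen after their values were seen. The genes and lists were chosen with earlier results of these data known. Symbols came from a table that gave one for 24555 of 28298 IDs, and no gene sequence was used. Of the 3 genes most like each member, 1 is not reported here.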

Additional observations from a re-analysis of the deposited data

Results flagged for a closer look

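apoc1 was at 27.07 CPM in the wild-type 24 hpf GFP-negative library, far from the 0.233 to 3.55 CPM of the other 5 GFP-negative libraries. apoc2 was at 11.97 CPM in the wild-type 72 hpf GFP-negative library, far from the other 5, which held 0 to 3.84 CPM. The 6 libraries are of different stages and backgrounds, and chance marks about 1 in 20 such groups.

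The GFP difference of wild-type cells differed between 72 and 24 hpf for apoeb, by 4.437 on the log2 scale (adjusted p = 0.0156, edgeR), for apoc1, by 12.72 (adjusted p = 0.00121), and for apoa1a, by 9.173 (adjusted p = 0.0227). Each was below the GFP-negative library in 2 of 2 GFP-positive libraries at 24 hpf and above it in 2 of 2 at 72 hpf. Each stage has 1 GFP-negative library, and on simulated data more calls of this contrast were false than its adjusted p states.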

How the results depend on the processing

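Of the single values recomputed, 1609 kept direction and side of the threshold, 89 passed that had not, 36 no longer passed and 21 changed sign; the causes were not tested. DESeq2 called 8 genes between fractions, 8 from 24 to 48 hpf, 6 from 48 to 72 hpf, 2 for gata5, 2 for tbx5 and 1 for hand2 against wild type, 5 for gata5 against tbx5, 1 for gata5 against hand2 and 3 for the stage by GFP contrast. Without a filter on low counts these were 4, 8, 7, 5, 4, 1, 9 and 3 in the first 8 comparisons, and 1 for tbx5 against hand2. Shares of all genes called were counted only in the main fits, not for DESeq2, without the filter or under any other setting here. Between fractions, 0 passed in the 9 wild-type libraries, 9 without the 24 and 48 hpf libraries and 4 without the tbx5 libraries, the last 2 settings chosen after seeing the data. In the wild-type libraries apom (−0.091) and apoc1 (−0.26) changed sign.

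Leaving out 1 library gave 4 to 9 called genes between fractions, 4 to 7 from 24 to 48 hpf, 2 to 5 from 48 to 72 hpf, 8 to 9 from 24 to 72 hpf, 0 to 1 in gata5 and in tbx5, 0 to 4 for gata5 against tbx5 and 2 to 5 for the stage by GFP contrast. The fraction count was 9 without the 24 hpf GFP-negative library and 8 without either 24 hpf GFP-positive one, the 24 to 48 hpf count 4 without 48 hpf library 1, and the 48 to 72 hpf count 5 without either 24 hpf library, and the stage by GFP count 5 without 24 hpf GFP-positive library 2. A left-out fit assumes that a lone library varies like the other groups. The share of all genes called in such fits was not counted, so their counts cannot be judged against all genes.

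Same-numbered libraries showed no strong shared shift over genes: correlations of same-numbered deviations over 15 pairs of groups were −0.0931 to 0.0998. These values cannot tell whether same-numbered libraries were collected or handled together. The filter by 12 groups called 2 genes in the stage by GFP contrast. With the replicate block 4 genes passed between fractions, 7, 2 and 9 between stages, 3 in the stage by GFP contrast and 0 for each background, and apobb.1 changed sign in gata5 against wild type (−0.055).

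Leaving out 1 library changed the sign of uncalled values, all in comparisons where the gene did not pass. From 48 to 72 hpf apoa1a ranged from −0.17 to 0.50. In gata5 against wild type apoa1a ranged from −0.35 to 0.39, apobb.1 from −0.97 to 0.82, apoc2 from −1.15 to 0.057 and apoea from −1.30 to 0.13. In tbx5 apoeb ranged from −0.12 to 0.51 and apom from −0.10 to 1.48. In hand2 apoa2 ranged from −0.80 to 0.19, apom from −1.11 to 0.85, apoc1 from −0.37 to 0.26, apoa1b from −0.63 to 0.10 and apoea from −0.13 to 1.70.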
